A study of Mus musculus with 18 samples.

Results

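The genes described here are those of the cell division cycle in mouse colon: every gene of the deposited table whose KEGG column names the pathway Cell cycle or the pathway DNA replication. Of 35405 genes in the table, 185 met this rule, 156 through Cell cycle, 36 through DNA replication and 7 through both. RNA sequencing of polyadenylated RNA gave 18 colon libraries, 6 in each of 3 groups. The TNBS group is named for trinitrobenzene sulfonic acid, a hapten that is used to induce colitis in mice. The series title spells IBC out as isobavachalcone, a plant chalcone, and places it in TNBS colitis. The vector group holds the controls, called control in the table's headers. Whether the IBC mice were also given TNBS is not stated in the labels, and neither are doses, times, strain, sex or age. Nothing states that each library is a separate animal, so every p-value below measures the spread between libraries. In these whole-tissue samples fewer dividing cells and less RNA per dividing cell cannot be told apart.

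Division starts when cyclin D with Cdk4 or Cdk6, and then cyclin E with Cdk2, phosphorylates the retinoblastoma family of pocket proteins and frees E2F factors, which switch on the genes of DNA synthesis. Origins of replication are marked by the origin recognition complex (ORC), loaded with the Mcm2 to Mcm7 helicase by Cdc6 and Cdt1, and copied by the DNA polymerases with the sliding clamp Pcna. Cyclin B with Cdk1 drives mitosis, the spindle checkpoint holds it until chromosomes are attached, and the anaphase-promoting complex (APC/C) with Cdc20 ends it. In the colon, division is normally confined to the lower part of the crypts, from which the epithelium is renewed continuously. This zone widens when the epithelium is injured.

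Between 55.7 and 78.9 (in 1e6 counts) were assigned per library, and the members' share of them from 0.940% to 1.203% in TNBS, from 0.983% to 1.13% in IBC and from 0.726% to 1.02% in vector. Levels below are counts per 1e6 counts of the scaled library total (CPM). Of the 185 genes, 181 had enough counts to be tested, among 20855 genes in all. The others were Ccnb3, Gm6195, Smc1b and Wee2. The lowest share belonged to the library vector 3, which also had the highest share of mitochondrial counts, 17.98%, against 4.48% to 9.20% in the other 17 libraries. In 6 libraries, 2 in each group, Hoxb13, a homeobox gene of the distal gut, was at most 1.44 CPM, whereas it was at 123 CPM or more in the other 12. These Hoxb13-low libraries are TNBS 2 and 3, IBC 2 and 5, and vector 3 and 4. Epithelial markers summed to between 9868 and 18221 CPM in every library, and each of 8 markers of differentiated colonocytes was detected in all 3 groups.

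RefSeq promoter windows (GRCm38.p6, 250 bases before to 50 after the start site) were matched by symbol for 146 of the 185 genes. They were searched on both strands for an E2F-type word (spelled either TTCCCGC, or else TTGGCGC, or again TTCGCGC, or finally TTGCCGC), for TTTGAA, the core of the cell cycle homology region (CHR) found in promoters of mitotic genes, and for CCAAT. The reverse strand of CCAAT ends in the letters with which an E2F-type word can begin, so overlapping stretches count for both. The windows below belong to 4 of the 6 named genes with the smallest p in TNBS against vector, those that hold an E2F-type word or a CHR. They are shown as examples. Since they were kept for holding a word, they do not tie the words to the differences below. Capitals mark the matches, and the words are given as they read on the printed strand.
Cdk1: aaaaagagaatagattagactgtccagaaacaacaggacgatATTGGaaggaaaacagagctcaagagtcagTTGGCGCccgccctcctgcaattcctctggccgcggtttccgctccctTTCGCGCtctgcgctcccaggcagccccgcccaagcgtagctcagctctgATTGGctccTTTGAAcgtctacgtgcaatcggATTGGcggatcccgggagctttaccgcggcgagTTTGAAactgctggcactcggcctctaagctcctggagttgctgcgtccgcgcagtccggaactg
Mad2l2: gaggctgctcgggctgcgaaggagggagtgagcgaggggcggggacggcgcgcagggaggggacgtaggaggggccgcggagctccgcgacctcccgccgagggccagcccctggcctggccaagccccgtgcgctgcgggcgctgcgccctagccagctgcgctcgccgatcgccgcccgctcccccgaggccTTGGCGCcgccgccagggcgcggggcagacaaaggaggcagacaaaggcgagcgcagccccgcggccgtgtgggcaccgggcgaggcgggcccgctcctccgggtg
Cdt1: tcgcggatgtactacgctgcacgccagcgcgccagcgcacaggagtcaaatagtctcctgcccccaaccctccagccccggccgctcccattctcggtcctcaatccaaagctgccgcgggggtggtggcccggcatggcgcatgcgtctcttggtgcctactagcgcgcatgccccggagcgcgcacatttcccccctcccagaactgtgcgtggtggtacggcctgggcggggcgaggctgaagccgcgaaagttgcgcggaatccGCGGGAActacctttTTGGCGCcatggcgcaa
Ndc80: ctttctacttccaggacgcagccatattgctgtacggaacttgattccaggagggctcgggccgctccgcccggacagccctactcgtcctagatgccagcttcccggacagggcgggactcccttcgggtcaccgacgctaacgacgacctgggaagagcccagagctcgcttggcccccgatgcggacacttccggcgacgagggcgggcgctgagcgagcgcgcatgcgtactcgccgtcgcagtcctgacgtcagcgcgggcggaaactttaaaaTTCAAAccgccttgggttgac
These windows lie at chr10:69352863-69353162 on the minus strand (Cdk1), chr4:148130670-148130969 on the plus strand (Mad2l2), chr8:122567765-122568064 on the plus strand (Cdt1) and chr17:71526808-71527107 on the minus strand (Ndc80). The Cdk1 window held 2 E2F-type words, 2 CHR words and 3 CCAAT words. Cdt1 held 2 E2F-type words downstream of the start site, Mad2l2 had 1 upstream of it, and Ndc80 had 1 CHR. None of the searched words was found in the windows of Ccne1 and Cdk4, the remaining 2 of the 6. An E2F-type word was present in 51.2% of 41 windows of replication genes, 8.33% of 12 windows of spindle checkpoint genes and 32.9% of all 146, against 9.69% of the windows of 27025 genes. For the CHR the order differed, with 14.6% of replication genes and 50% of spindle checkpoint genes, against 18.1% of all genes. CCAAT was in 50% of members, against 37.9% of all genes. A match is a string of letters and not evidence of binding.

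Levels were compared between genes on the deposited FPKM scale, which divides by a length per gene. The definition of that length is not known here, and ranks between genes depend on it. Ywhae, a 14-3-3 protein that binds phosphorylated partners such as Cdc25, had 167 ± 20.1 FPKM in TNBS, 167 ± 14.1 in IBC and 138.5 ± 13.96 in vector (SD, n = 6 each). It was followed by Ppp2cb, a catalytic subunit of the phosphatase PP2A, the 14-3-3 gene Ywhaz, and Skp1, a subunit of the SCF ubiquitin ligase. Pcna ranked 10 by its vector mean, with 71.3 ± 17.9 FPKM in TNBS, 58.6 ± 10.8 in IBC and 45.8 ± 12.5 in vector. The median member had 6.41 FPKM in TNBS, 6.70 in IBC and 5.74 in vector. At the other end, 11 members were below 1 FPKM in every group mean. Among them was Cdkn2a, which encodes the inhibitors p16 and p19Arf, with 0.147 ± 0.149 FPKM in TNBS, 0.166 ± 0.103 in IBC and 0.0807 ± 0.0559 in vector.

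In TNBS against vector, the genes of DNA replication and of the spindle checkpoint had higher means in TNBS throughout, and no member passed the adjusted threshold. All 48 tested replication genes had a positive log2 difference (TNBS minus vector), with a median of 0.51, as did all 13 spindle checkpoint genes, with a median of 0.55. The cyclins were next to these, with a median of 0.44 and 8 of 10 positive. The medians of the remaining roles lay between 0.10 and 0.25, and that of all genes tested was -0.01. Among the 181 members 141 had a positive difference, against 48.9% of all genes tested, and the members' median was 0.30. At an unadjusted p under 0.05 edgeR had 62 members higher in TNBS, which is 34.3% of members against 10.4% of all genes. It had 6 members lower, 3.31% against 7.32%. In the Hoxb13-high libraries alone 35 members were higher, 19.3% against 7.03% of all genes in that fit. Leaving out TNBS 6 gave 15 lower, 8.29% against 12% of all genes, and leaving out TNBS 3 gave 3, 1.66% against 6.03%. Leaving out TNBS 5 or vector 3 gave 2 lower each, 1.1% against 5.21% and 5.28%.

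edgeR's quasi-likelihood test with Benjamini-Hochberg adjustment over all genes called 0 members in TNBS against vector, with 0.0192% of all genes called. The smallest adjusted p of a member was 0.103. DESeq2 called 7 members higher in TNBS, where it called 1.61% of all genes higher. They were Cdk1, Ccne1, Mad2l2, Ndc80, Cdt1, Cdk4 and Trip13. With the library TNBS 6 left out, edgeR called 4 members, namely Ccne1, Cdk1, Mad2l2 and Cdk4, at adjusted p-values of 0.0279 to 0.0378. All were higher in TNBS, 2.21% of members against 0.952% of all genes called higher in that fit. Groups that do not overlap were found for 6 members, 3.31% against 1.17% of all genes, all of them higher in TNBS: Cdt1, Mcm5, Mcm7, Cdc20, E2f4 and Ywhae.

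**Figure D1:**
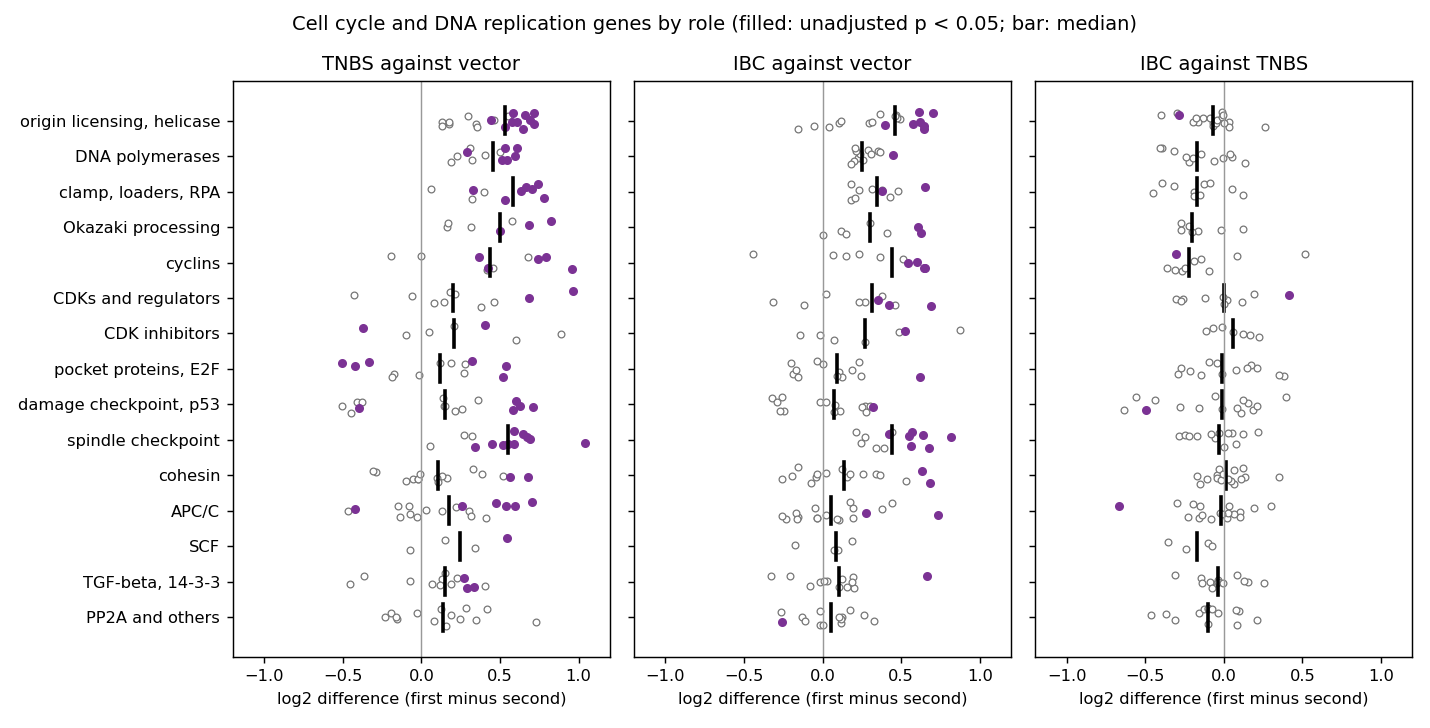
Log2 difference of each tested member (first group minus second) in 3 comparisons, by role; each point is a gene, filled where edgeR's unadjusted p is under 0.05, and the bar is the median of the role. In TNBS against vector the medians of the replication and spindle checkpoint roles lie between 0.45 and 0.58, and in IBC against TNBS those of the same roles lie between -0.20 and -0.03.

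Among the proteins that license origins and build the helicase, 10 of 19 were higher in TNBS at an unadjusted p under 0.05 and none was lower. Of all genes tested 10.4% were higher and 7.32% lower at that threshold, which is the background for each role below. Cdt1, the loader of the Mcm helicase, had 24.7, 32.0 and 33.5 CPM in TNBS (lowest, median and highest library), against 9.38, 19.6 and 24.7 CPM in vector. The groups did not overlap, although the lowest TNBS library and the highest vector library differ by less than the rounding. The log2 difference was 0.69 ± 0.20 (SE), with an edgeR adjusted p of 0.141 and a range of 0.0351 to 0.244 over the other settings tried. Mcm5, a helicase subunit, had 68.2, 75.3 and 93.4 CPM in TNBS, against 13.4, 49.4 and 66.7 CPM in vector. The lowest of these was vector 3. Mcm7, another subunit, had 71.2, 81.2 and 92.2 CPM in TNBS, against 31.0, 54.7 and 68.4 CPM in vector, again without overlap.

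The 6 helicase subunits Mcm2 to Mcm7 were all higher in TNBS, with log2 differences of 0.45 to 0.72, and 5 of them had an unadjusted p under 0.05. Mcm6 was the exception, at 0.55 ± 0.28 and an edgeR adjusted p of 0.311. Their summed level was 396 ± 50.5 CPM in TNBS and 262 ± 93.4 CPM in vector (SD, n = 6 each). Vector 3 was the lowest library, at 95.8 CPM. Orc1, the largest subunit of the origin recognition complex, averaged 8.88 ± 1.56 CPM in TNBS and 5.66 ± 2.56 CPM in vector, with overlapping groups.

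The sliding clamp, its loaders and the single-strand binding protein RPA had 7 of 10 genes higher in TNBS at an unadjusted p under 0.05. Pcna, the clamp, had 119.8, 185 and 302 CPM in TNBS, against 73.3, 131 and 152 CPM in vector. All TNBS libraries but TNBS 6 were above the vector median, and the groups overlapped. The log2 difference of Pcna was 0.70 ± 0.23 with an edgeR adjusted p of 0.179, and that of Rpa2, the middle subunit of RPA, was 0.78 ± 0.25 with 0.174. Of the DNA polymerase subunits 6 of 12 were higher at an unadjusted p under 0.05. The small subunit Pole3 averaged 55.5 ± 15.6 CPM in TNBS and 39.0 ± 2.27 CPM in vector. The catalytic subunits Pola1 and Pold1 had log2 differences of 0.31 ± 0.24 and 0.19 ± 0.14, with unadjusted p above 0.05 in edgeR.

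Processing of Okazaki fragments, the short pieces of the lagging strand, gave 3 of 7 genes higher at an unadjusted p under 0.05. Fen1, the flap endonuclease, had 25.95, 40.3 and 53.3 CPM in TNBS, against 11.2, 21.8 and 32.7 CPM in vector. All 6 TNBS libraries were above the vector median, with overlap between the groups. Rnaseh2b, a subunit of the ribonuclease that removes RNA primers, averaged 20.7 ± 9.66 CPM in TNBS and 12.9 ± 1.86 CPM in vector, and its TNBS mean includes 39.3 CPM in TNBS 5.

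**Figure D2:**
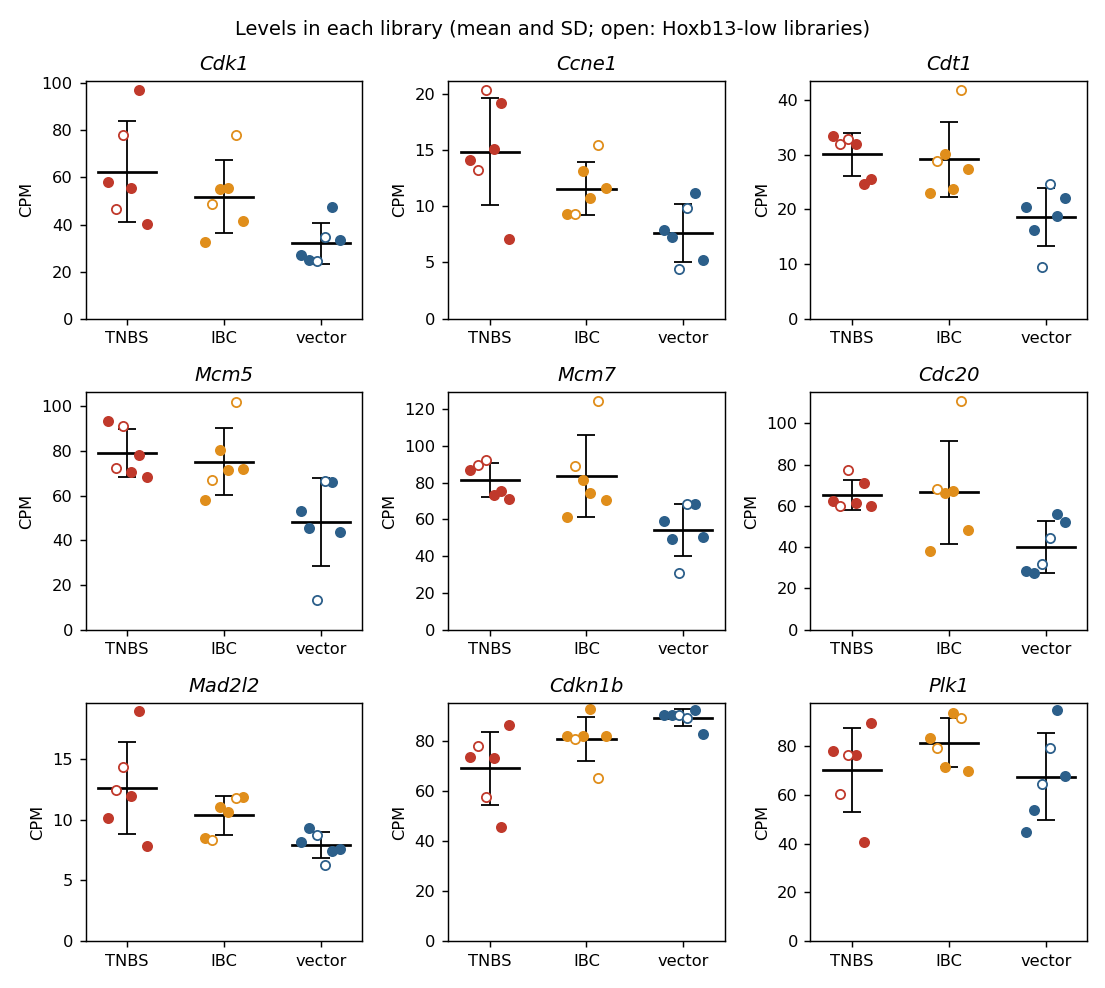
CPM of 9 members in each library of TNBS, IBC and vector; points are libraries (open: Hoxb13-low), the horizontal line is the mean and the bars are 1 SD (n = 6). The lowest TNBS library lies above the highest vector library for Cdt1, Mcm5, Mcm7 and Cdc20, the other genes overlap, and Plk1 has nearly the same mean in TNBS and vector, 70.3 and 67.6 CPM.

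Among the cyclins and their kinases Cdk1, Ccne1, Ccna2 and Ccnb1 had the largest log2 differences, followed by Cdk4 and Ccnd1. Of the cyclins 5 of 10 were higher in TNBS at an unadjusted p under 0.05. Cdk1, the mitotic kinase (table position chromosome 10, 69170976 to 69188768, build not given), had 40.1, 56.7 and 97.3 CPM in TNBS, against 24.5, 30.3 and 47.6 CPM in vector. Every TNBS library was above the vector median, and vector 5 alone reached into the TNBS range. Its log2 difference was 0.96 ± 0.24, with an edgeR adjusted p of 0.103 and a range of 0.00987 to 0.250 over the other settings. Ccne1, cyclin E1, averaged 14.8 ± 4.75 CPM in TNBS and 7.64 ± 2.59 CPM in vector. TNBS 6, at 7.08 CPM, was below the vector median, the other 5 TNBS libraries above it.

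Ccna2, the cyclin of S and G2 phase, averaged 119 ± 27.1 CPM in TNBS and 68.9 ± 26.1 CPM in vector. Ccnb1, the main partner of Cdk1, averaged 53.1 ± 18.3 CPM in TNBS and 31.8 ± 12.4 CPM in vector. The members include a pseudogene copy, Ccnb1-ps, with which the counting could have split reads, so the level of Ccnb1 is uncertain. Ccnb1-ps itself had 0.501 FPKM in TNBS and 0.311 in vector, against 10.9 and 6.79 for Ccnb1. Cdk4, the kinase of cyclin D, had 105, 163 and 300.1 CPM in TNBS, against 96.0, 111 and 116 CPM in vector. The vector libraries were tight and TNBS 6 was among them. Ccnd1, cyclin D1, averaged 144 ± 103 CPM in TNBS and 90.3 ± 27.6 CPM in vector, and the TNBS mean rests on TNBS 3 with 344 CPM. Leaving TNBS 3 out brought its log2 difference to 0.21, from 0.68 with all libraries. Cdk2 had a log2 difference of 0.21 ± 0.15.

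The brakes of the cycle did not follow one direction. Cdkn1b, which encodes the inhibitor p27, had 45.6, 73.2 and 86.2 CPM in TNBS, against 82.7, 90.2 and 92.4 CPM in vector. All 6 TNBS libraries were below the vector median, while TNBS 5 was the lowest and the groups overlapped. Its log2 difference was -0.37 ± 0.13 with an edgeR adjusted p of 0.197. Cdkn1a, the p53 target p21, was level at 158 ± 18.8 CPM in TNBS and 153 ± 21.3 CPM in vector. Cdkn2c, the Cdk4 inhibitor p18, averaged 19.6 ± 5.38 CPM in TNBS and 14.8 ± 2.33 CPM in vector.

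The pocket protein and E2F role was split as well, with 3 of 13 higher and 3 lower at an unadjusted p under 0.05, against 10.4% and 7.32% of all genes. E2f1, an activating E2F, averaged 11.03 ± 2.25 CPM in TNBS and 7.58 ± 2.06 CPM in vector. E2f4, a repressive E2F, had 66.7, 69.6 and 93.3 CPM in TNBS, against 54.2, 60.8 and 61.8 CPM in vector, with no overlap, and a log2 difference of 0.32 ± 0.11. Tfdp1, the main dimer partner of E2F, averaged 133 ± 33.8 CPM in TNBS and 93.2 ± 17.6 CPM in vector. The genes with lower values were chosen for naming after their values were seen. They are Tfdp2, another dimer partner, at -0.34 ± 0.15, and Rbl2, the pocket protein p130 of resting cells, at -0.42 ± 0.19. The remaining one is the tyrosine kinase Abl1, at -0.50 ± 0.22. All 3 are in the longest of the 4 length groups described below, where 12.1% of genes outside the set were lower at that threshold. Rb1 itself had -0.17 ± 0.16.

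In the damage checkpoint role 4 of 15 genes were higher and 1 was lower at an unadjusted p under 0.05, against 10.4% and 7.32% of all genes. Gadd45b, a stress-induced partner of Cdk1 and MAP kinases, averaged 23.9 ± 9.95 CPM in TNBS and 14.6 ± 3.07 CPM in vector. Myc, a transcription factor that drives growth, averaged 43.9 ± 17.4 CPM in TNBS and 29.0 ± 7.28 CPM in vector. Mdm2, the ubiquitin ligase that removes p53, was the lower one, with 34.0 ± 6.56 CPM in TNBS and 44.8 ± 6.89 CPM in vector, all 6 TNBS libraries being below the vector median. Trp53 had a log2 difference of 0.21 ± 0.12.

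The spindle checkpoint had 10 of 13 genes higher in TNBS at an unadjusted p under 0.05. Ndc80, which anchors microtubules to the kinetochore, had 10.03, 14.3 and 15.3 CPM in TNBS, against 6.36, 7.45 and 13.3 CPM in vector. Every TNBS library was above the vector median, and vector 5 was the highest vector library. Mad2l2, a HORMA-domain protein that KEGG draws with this checkpoint and that also acts in DNA repair, averaged 12.6 ± 3.82 CPM in TNBS and 7.92 ± 1.10 CPM in vector. Trip13, the ATPase that remodels HORMA proteins, had the largest difference of the set, 1.04 ± 0.32, with an edgeR adjusted p of 0.163. Bub1, a checkpoint kinase, averaged 20.04 ± 3.74 CPM in TNBS and 13.3 ± 4.87 CPM in vector. Plk1, the mitotic kinase, differed from its role with 0.06 ± 0.19.

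Exit from mitosis and cohesion showed single genes rather than whole roles. Of the APC/C and its regulators 5 of 18 were higher and 1 lower at an unadjusted p under 0.05, against 10.4% and 7.32% of all genes. The lower one was the phosphatase gene Cdc14a, at -0.42 ± 0.19, named after its value was seen. Cdc20, the activator of the APC/C, had 60.0, 61.7 and 77.3 CPM in TNBS, against 27.4, 38.02 and 56.2 CPM in vector. The groups did not overlap, and the log2 difference was 0.70 ± 0.23 with an edgeR adjusted p of 0.174. Among cohesin and its regulators 2 of 16 were higher, a share near the 10.4% of all genes. They were Cdca5 (sororin, which holds sister chromatids together) at 0.68 ± 0.22 and Pttg1 (securin, which holds separase back) at 0.56 ± 0.26. None of 9 subunits of PP2A had an unadjusted p under 0.05, and their median difference was 0.12. Ywhae had 437, 484 and 543 CPM in TNBS, against 370.01, 397 and 423 CPM in vector, without overlap. The ubiquitin ligase subunit Skp1 had a log2 difference of 0.54 ± 0.20.

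In IBC against vector the same roles had higher means in IBC, again with no called gene. This comparison shares the vector libraries with the preceding one, so their values are given side by side and not as independent evidence. The median difference (IBC minus vector) was 0.31 for the 48 replication genes, of which 45 were positive, and 0.44 for the 13 spindle checkpoint genes, all positive. Over the 181 members 136 were positive, against 49.1% of all genes, with a median of 0.20. At an unadjusted p under 0.05 edgeR had 34 members higher, 18.8% against 4.9% of all genes, and 1 lower, 0.552% against 3.63%. The adjusted edgeR test called 0 members and 0.0% of all genes, with a smallest adjusted p of 0.284. DESeq2 also called 0 members, and 0.638% of all genes as higher. The count of 34 was 20 with the library IBC 5 left out, which is 11% of members against 4.41% of all genes in that fit. In the Hoxb13-high libraries alone it was 15, or 8.29% against 7.16% of all genes, a share near the background.

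Ndc80 had the smallest p, with 10.96, 14.04 and 16.6 CPM in IBC, against 6.36, 7.45 and 13.3 CPM in vector. Its log2 difference was 0.68 ± 0.19, with an edgeR adjusted p of 0.284 and a range of 0.0510 to 0.538 over the other settings. All 6 IBC libraries were above the vector median, with overlap. Mcm7 followed with 83.5 ± 22.2 CPM in IBC and 54.4 ± 14.2 CPM in vector, and 5 of the 6 helicase subunits had an unadjusted p under 0.05. Lig1, the ligase that seals Okazaki fragments, averaged 51.2 ± 9.55 CPM in IBC and 33.3 ± 10.7 CPM in vector. Cdt1 averaged 29.2 ± 6.82 CPM in IBC and 18.6 ± 5.35 CPM in vector.

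E2f1 was the 1 member whose groups did not overlap, 0.552% against 1.08% of all genes, a share below the background. It had 10.8, 11.49 and 12.6 CPM in IBC, against 4.01, 8.03 and 9.90 CPM in vector. Cdc20 averaged 66.6 ± 24.9 CPM in IBC and 40.1 ± 12.6 CPM in vector, with 111 CPM in IBC 5. Cdk1 had a log2 difference of 0.69 ± 0.24, Ccnb1 of 0.65 ± 0.27 and Ccne1 of 0.60 ± 0.25. Espl1, the separase that cuts cohesin, had 0.68 ± 0.24, and Cdkn2c had 0.52 ± 0.17. Tgfb1, a growth-inhibiting cytokine of epithelium, had 0.66 ± 0.23, and Trp53 had 0.32 ± 0.12. Pcna had 0.31 ± 0.23, with 99.5, 142 and 220.5 CPM in IBC, against 73.3, 131 and 152 CPM in vector, and its difference was -0.0281 in the Hoxb13-high libraries alone. The member with a lower value was Ppp2r5b, a regulatory subunit of PP2A, at -0.26 ± 0.11.

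In IBC against TNBS the members were hardly separated. The median difference (IBC minus TNBS) was -0.06, with 63 of 181 positive, against 50.3% of all genes and a median of 0.00. On the FPKM scale with limma the median was 0.05 or 0.03, depending on the pseudocount, so its sign depends on the scaling. All genes shifted there too, with 3.45% or 3.49% of them higher at an unadjusted p under 0.05 in limma and 0.643% or 0.662% lower. At an unadjusted p under 0.05 edgeR had 1 member higher, 0.552% against 1.71% of all genes, and 4 lower, 2.21% against 2.22%, which is no more than the background. edgeR called 0 members and 0.0% of all genes after adjustment, with a smallest adjusted p of 0.925. DESeq2 also called 0 members, and it called 0.0048% of all genes as higher. No member's groups were without overlap, against 0.149% of all genes.

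The higher one was Wee1, the kinase that holds Cdk1 back, with 21.4, 23.5 and 28.1 CPM in IBC, against 14.2, 17.8 and 24.98 CPM in TNBS. All 6 IBC libraries were above the TNBS median, and the vector libraries, at 13.8 to 27.7 CPM, spanned most of both ranges. The lower ones were Anapc10, an APC/C subunit, at -0.67 ± 0.24, Myc at -0.49 ± 0.23, Ccnd3, cyclin D3, at -0.30 ± 0.14 and Orc4, an origin recognition subunit, at -0.28 ± 0.11. The Anapc10 value rests on TNBS 5, which had 27.9 CPM when the other TNBS libraries had 8.53 to 13.2 CPM. Without TNBS 5 it was -0.33. Myc averaged 31.3 ± 4.22 CPM in IBC and 43.9 ± 17.4 CPM in TNBS. Cdk1 had -0.27 ± 0.23, and the 48 replication genes had a median of -0.14, with 39 of them negative. Leaving out IBC 5 gave 4 higher, 2.21% against 3.71% of all genes in that fit, and 21 lower, 11.6% against 7.26%. Leaving out TNBS 6 gave 5 higher, 2.76% against 3.19%, and 14 lower, 7.73% against 4.83%.

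With TNBS and IBC averaged and set against vector, 141 of 181 members had a positive difference, against 49.1% of all genes, with a median of 0.24. At an unadjusted p under 0.05 edgeR had 59 members higher, 32.6% against 8.01% of all genes, and 4 lower, 2.21% against 7.12%. No member passed edgeR's adjusted threshold, where 0.187% of all genes did, and the smallest adjusted p was 0.101, for Cdk1. DESeq2 called 15 members higher, 8.29% against 1.86% of all genes, among them Ndc80, Cdk1, Cdt1, Mcm7, E2f1 and Cdc20. Of its 7 calls in TNBS against vector, 6 were among these 15. edgeR called 2 members higher, Ccne1 and Cdk1, when TNBS 6 was left out, 1.1% against 0.649% of all genes called higher in that fit. No member had all 12 libraries of TNBS and IBC clear of the vector libraries, against 0.182% of all genes.

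The level of the replication genes in a library was summarised as the mean of their centred log2 values. It ran from -0.08 to 0.42 in TNBS, from -0.24 to 0.49 in IBC and from -0.84 to 0.00 in vector. The highest TNBS libraries were TNBS 3 and TNBS 5, at 0.42 and 0.41, the highest IBC library was IBC 5, and the lowest vector library was vector 3. In vector the libraries 4 and 5 were at -0.02 and 0.00, which is inside the TNBS and IBC ranges. Spindle checkpoint genes had their lowest TNBS library at -0.03, their lowest IBC library at -0.20 and their lowest vector library at -0.71. Vector 5 reached 0.15 for them. Without vector 3 the median difference of the replication genes was 0.41 in TNBS against vector and 0.26 in IBC against vector. Vector 3 had both the highest mitochondrial share and the lowest replication level. The next highest shares, 9.20% in TNBS 5 and 7.51% in IBC 2, came with replication levels of 0.41 and 0.14. The part of the mitochondrial share in the result was not tested.

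**Figure D3:**
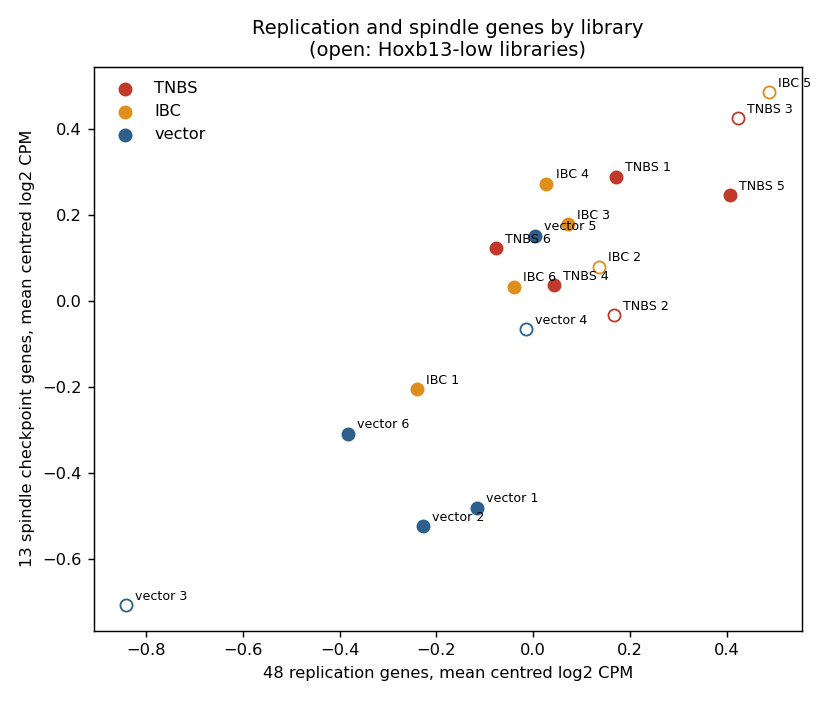
Mean centred log2 CPM of 48 replication genes (x) and of 13 spindle checkpoint genes (y) in each of 18 libraries, coloured by group, open for Hoxb13-low libraries. TNBS libraries lie between -0.08 and 0.42 on the x axis, IBC libraries between -0.24 and 0.49, and vector libraries between -0.84 and 0.00, with vector 3 farthest to the left.

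Roles also differed within single libraries. TNBS 5 had clamp and RPA genes at 0.77, while its cohesin genes were at -0.34 and its pocket protein and E2F genes at -0.28. IBC 5 was high in the replication roles and in the cyclins, at 0.53. Within vector, the clamp and RPA genes ranged from -0.71 to -0.05 and the PP2A subunits from -0.05 to 0.04. The PP2A subunits also stayed within -0.03 to 0.10 in TNBS and -0.14 to 0.16 in IBC.

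**Figure D4:**
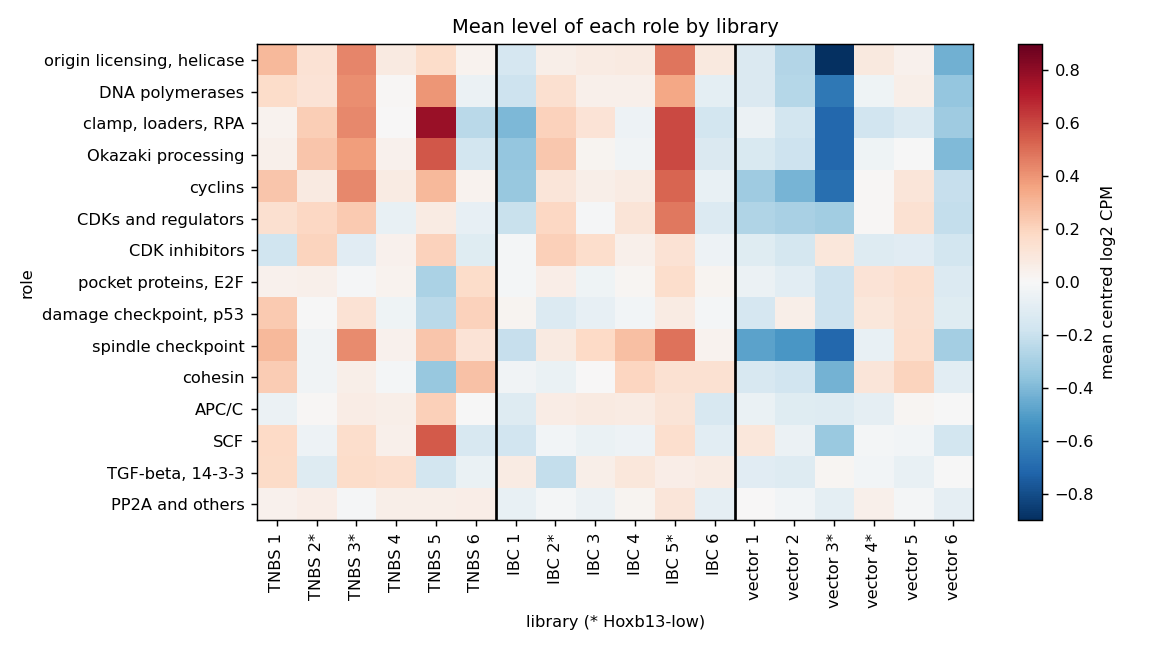
Mean centred log2 CPM of each of 15 roles in each library, with TNBS, IBC and vector from left to right and Hoxb13-low libraries starred. Vector 3 has the lowest value of the licensing role, -1.09, and TNBS 5 the highest value of the clamp role, 0.77, while the role of PP2A and others stays within -0.08 to 0.11 in all libraries.

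The Hoxb13 class was set beside the results because it separates libraries of every group. In the Hoxb13-high libraries, 4 in each group, the median difference of TNBS minus vector was 0.26 over members and 0.35 over replication genes, and in the Hoxb13-low libraries, 2 in each group, it was 0.35 and 0.72. A test of the interaction in edgeR gave 0 members at an unadjusted p under 0.05, where 4.56% of all genes had one, and 0 after adjustment. The smallest p belonged to Tfdp2, 0.0548 in edgeR (adjusted 1.00), whose difference was -0.73 in Hoxb13-low and -0.17 in Hoxb13-high libraries. Zbtb17, a zinc-finger partner of Myc, followed with 0.43 and 0.01, and Wee1 with 0.36 and -0.27. In IBC against vector the replication genes had a median of 0.67 in Hoxb13-low and 0.15 in Hoxb13-high libraries, a difference whose test was not run. The Hoxb13-low medians of both comparisons use vector 3 and vector 4 as controls. Their replication levels were -0.84 and -0.02, so the larger values in this class rest in part on the single library vector 3.

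Members also differed between the classes themselves, which is a description since the classes were drawn from these libraries. The genes named here were chosen after their values were seen. Ccnd1 had a median of 146 CPM in the 6 Hoxb13-low libraries, against 88.0 CPM in the 12 Hoxb13-high ones. Cdkn1c, the inhibitor p57, had 12.1 CPM in the low class, against 5.58 CPM in the high one. Hdac1, a deacetylase that pocket proteins recruit, had 125.9 to 209.7 CPM in the low class, against 73.6 to 114 CPM in the high class, with no overlap. Atm, the kinase of the double-strand break response, had a median of 8.65 CPM in the low class, against 17.6 CPM in the high class. Of the members 1.1% had classes without overlap, against 2.88% of all genes.

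Log2 differences over all genes ran with gene length. A length per gene was taken from the ratio of counts to FPKM, and the tested genes were divided into 4 length groups of equal size. From the shortest group to the longest, genes outside the set had medians of 0.22, 0.08, -0.04 and -0.19 (TNBS minus vector). The members had 0.44, 0.51, 0.33 and 0.14. They were above the other genes in each length group. In length group 2, 25 of 42 members had an unadjusted p under 0.05 with a higher value, against 14.5% of the other genes there. In the longest group 4 of 60 members had one with a lower value, against 12.1% of the other genes there. These 4 are Tfdp2, Rbl2, Abl1 and Cdc14a. In IBC against vector the members had 0.20, 0.28, 0.24 and 0.05, and the other genes 0.03, 0.05, -0.01 and -0.08. Subtracting the median of the other genes of the same length group left a members' median of 0.35 in TNBS against vector, -0.10 in IBC against TNBS and 0.21 in IBC against vector. What produces the slope with length was not tested.

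**Figure D5:**
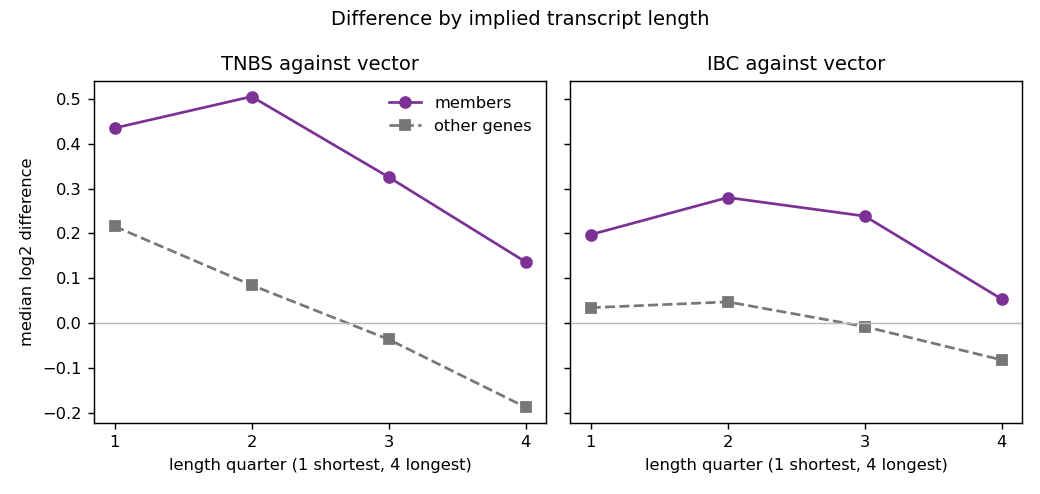
Median log2 difference by group of implied length per gene (1 shortest, 4 longest), for the tested members and for all other tested genes. The panels show TNBS against vector and IBC against vector. The members' line lies above the other genes' line in each length group, at 0.44, 0.51, 0.33 and 0.14 against 0.22, 0.08, -0.04 and -0.19 in TNBS against vector.

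Genes of proliferation outside both pathways had the same sign. All 32 of the list were higher in TNBS than in vector, with a median of 0.48, against 48.9% of all genes tested. Of the 32, 15 had an unadjusted p under 0.05 in edgeR, where 10.4% of all genes were higher. All 32 were also higher in IBC than in vector, with a median of 0.57, against 49.1% of all genes. There 20 had an unadjusted p under 0.05, where 4.9% of all genes were higher. Rrm2, a subunit of ribonucleotide reductase, averaged 53.8 ± 13.1 CPM in TNBS, 51.5 ± 20.6 in IBC and 24.2 ± 13.01 in vector. Mki67, the proliferation marker Ki-67, averaged 134.5 ± 51.3 CPM in TNBS, 144 ± 22.8 in IBC and 119 ± 44.5 in vector, which is within the spread. In IBC against TNBS 19 of the 32 were higher and 13 lower, where 50.3% of all genes were higher. None of the 32 had an unadjusted p under 0.05 in edgeR, against 1.71% of all genes higher and 2.22% lower.

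Markers of the other cells of the colon wall give the setting. The 8 smooth muscle genes were all lower in TNBS than in vector, with a median of -0.61, where 48.9% of all genes were higher. They were also all lower in IBC than in vector, with -0.56, where 49.1% of all genes were higher. The smooth muscle genes summed to 1932 to 4646 CPM in TNBS, 2491 to 5088 CPM in IBC and 3001 to 8563 CPM in vector. The 8 epithelial genes had a median of 0.13 in TNBS against vector and -0.01 in IBC against vector, with no unadjusted p under 0.05 in edgeR. The 8 genes of crypt stem cells had medians of 0.16 and 0.18 but no common direction. Against vector, 5 were higher and 3 lower in TNBS, and 4 were higher and 4 lower in IBC. They summed to 295 to 652 CPM in TNBS, 439 to 625 CPM in IBC and 363 to 513 CPM in vector. Slc12a2 made up a large part of these sums, with means of 290 CPM in TNBS, 330 in IBC and 252.5 in vector. The 8 genes of differentiated colonocytes had medians of -0.26 in TNBS against vector and -0.15 in IBC against vector. Their sums were 1757 to 10181 CPM in TNBS, 1990.2 to 19797 CPM in IBC and 3593 to 13783 CPM in vector.

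All 8 neutrophil genes were higher in TNBS than in vector and in IBC than in vector, each at an unadjusted p under 0.05. Of all genes tested 10.4% and 4.9% were higher at that threshold in edgeR. The neutrophil genes summed to 7.62 to 271 CPM in TNBS, 5.24 to 79.2 CPM in IBC and 2.13 to 5.58 CPM in vector. Levels in the controls were thus near 0. The 271 CPM belonged to TNBS 5 alone, and the next highest TNBS library, TNBS 3, had 42.6 CPM. IBC 2, at 5.24 CPM, was inside the vector range. The 8 genes of lymphocytes and germinal centres, whose cells also divide, had a median of -0.16 in TNBS against vector and 0.16 in IBC against vector. They summed to 16.9 to 74.1 CPM in TNBS, 19.3 to 81.5 CPM in IBC and 7.33 to 133 CPM in vector, which overlap. The part of cell composition in the members' differences was not tested.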

How the data were processed

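Polyadenylated RNA of mouse colon was sequenced in 18 libraries, 6 in each of the groups TNBS, IBC and vector. Reads were trimmed with cutadapt 1.9, per the submitters' processing notes. Neither the aligner nor the counting program nor the genome build is given in the labels or headers used here. Per the file headers, each gene has a deposited count and a deposited FPKM (a fragment count scaled by length and library size) for every library. Positions differ from GENCODE M21 (GRCm38) for all but 639 of 32979 shared genes and are printed without a build. Low counts pile up at 4, with 19961 values of 4 against 6358 of 5, so a sequenced fragment may be worth more than 1 count, and counts divided by 4 were tried.

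Counts were filtered with filterByExpr (minimum count 10) and scaled by TMM. They were tested with edgeR 4.0.16 (quasi-likelihood, two-sided) in a single fit of 18 libraries, with Benjamini-Hochberg adjustment over all 20855 genes at 0.05. Other tools were DESeq2 1.42.0 and limma 3.58.1 under R 4.3.3. The fit was tested on simulated data. Library totals set the precision of the values, and no upper limits are given for counts of 0. The library scores use log2(CPM + 1). Members and gene lists were chosen with earlier results of these data known, so a list's counts stand beside those of all genes and carry no test of their own. The named-gene rule takes 24 genes of the cycle whatever their result, the 2 smallest p per role and comparison, members without overlap and the 3 smallest interaction p-values. Trip13 and the other members that DESeq2 or edgeR without TNBS 6 called are named besides it, as are Mcm3 and Mcm4 within their complex. Hoxb13 classes were set at 10 CPM. Other settings were the filter, DESeq2, limma on log2 FPKM with pseudocounts of 0.1 and 1, the Hoxb13 class as a covariate, the Hoxb13-high libraries alone, a replicate block, only the groups compared, and each library left out. The length correction was added after the data were seen.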

Additional observations from a re-analysis of the deposited data

Results flagged for a closer look

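A library stood far from the other 5 of its group in 18 of 171 combinations of a named gene and a group (57 genes). The rule flags about 1 in 20 for independent, normally distributed values. Genes of the same library are not independent, so the count of 18 does not measure an excess over chance. The library IBC 5 accounts for 9 of the 18. It was the highest of IBC for Ccnd1 (225.2 CPM, the others at most 109.9), E2f4 (82.4 CPM, the others at most 64.5), Fen1 (60.0 CPM, the others at most 32.8) and Mcm3 (78.6 CPM, the others at most 55.5). It was also the highest for Mcm4 (69.6 CPM, the others at most 49.9), Tfdp1 (150.5 CPM, the others at most 110.5), Trip13 (23.4 CPM, the others at most 11.9) and Ywhae (610.3 CPM, the others at most 459.6). For Rbl2 it was the lowest, at 29.3 CPM, with the others at 47.1 CPM or more.

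Vector 3 was the lowest vector library for Cdk4 (96.0 CPM, the others from 108.7), Cdkn1a (112.7 CPM, the others from 150.1) and Pold1 (19.6 CPM, the others from 28.6). TNBS 5 was the highest TNBS library for Anapc10 (27.9 CPM, the others at most 13.2), Pttg1 (41.4 CPM, the others at most 27.0) and Rnaseh2b (39.3 CPM, the others at most 20.9). TNBS 3 had 344.0 CPM of Ccnd1, with the others at most 149.4. Vector 6 was lowest for Cdkn1b, at 82.7 CPM with the others from 89.1. Vector 5 was highest for Pole3, at 43.6 CPM with the others at most 38.5.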

How the results depend on the processing

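The members' median stayed above 0 under every setting tried in TNBS against vector, IBC against vector and the averaged comparison, as did that of the replication genes in the first pair of these. In IBC against TNBS the members' median was 0.05 and 0.03 with limma on FPKM at pseudocounts 0.1 and 1, against -0.06, and all genes shifted toward higher values there too. Calls depended on the tool: DESeq2 called 7 members in TNBS against vector and 15 in the averaged comparison, where edgeR called 0. With a library left out, edgeR called 0 to 4 in TNBS against vector, 0 to 2 in the averaged comparison and 0 in the others.

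Members higher in TNBS than in vector at an unadjusted p under 0.05 numbered 35 in the Hoxb13-high libraries alone, 19.3% against 7.03% of all genes. With a library left out they numbered 47 (without TNBS 3) to 70 (without TNBS 6), 26% against 7.72% and 38.7% against 13.8%. The number lower was 1 in the Hoxb13-high libraries, 0.552% against 5.14%, and 2 to 15 with a library left out. The 15, without TNBS 6, were 8.29% against 12%. In IBC against TNBS the number higher was 2 in the Hoxb13-high libraries, 1.1% against 5.23% of all genes. It was also 2 with limma at pseudocounts 0.1 and 1, 1.1% against 3.45% and 3.49%. With a library left out it was 1 to 5, the 5 without TNBS 6 being 2.76% against 3.19%. The number lower was 7 in the Hoxb13-high libraries, 3.87% against 5.64%, and 2 with only the groups compared, 1.1% against 1.23%. It was 0 with limma, against 0.643% and 0.662% of all genes, and 1 to 21 with a library left out. The 21, without IBC 5, were 11.6% against 7.26%. In IBC against vector the number higher was 15 in the Hoxb13-high libraries, 8.29% against 7.16% of all genes. With limma at pseudocounts 0.1 and 1 it was 59 and 58, 32.6% against 7.63% and 32% against 7.52%. With a library left out it was 20 (without IBC 5) to 47 (without vector 5), 11% against 4.41% and 26% against 4.54%. The number lower was 2 with no filter, 1.08% against 3.78%, and with the Hoxb13 class as a covariate, 1.1% against 5.2%. It was also 2 in the Hoxb13-high libraries, 1.1% against 2.91%, and with only the groups compared, 1.1% against 4.84%. It was 0 with limma, against 1.99% and 2.25% of all genes, and 0 to 2 with a library left out. In the averaged comparison the number higher was 29 in the Hoxb13-high libraries, 16% against 6.87% of all genes. The number lower was 1 there, 0.552% against 4.5%, and 0 with limma, against 5% and 5.26%. It was 1 to 11 with a library left out, the 11 without TNBS 6 being 6.08% against 10.1%. Fewer libraries were compared in the Hoxb13-high and left-out fits. What moved the counts was not tested under any setting.

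With the replicate number as a block, the members lower numbered 12 in TNBS against vector, 2 in IBC against vector and 8 in the averaged comparison. These are 6.63%, 1.1% and 4.42% of members, against 10.2%, 3.97% and 9.2% of all genes in that fit. The counts of higher members were 61, 36 and 55, or 33.7%, 19.9% and 30.4%, against 8.6%, 4.12% and 6.77% of all genes. In IBC against TNBS the block gave 1 higher, 0.552% against 2.03%, and 6 lower, 3.31% against 2.22%, with a median of -0.07. Same-numbered pairs correlated above 0.1 in 5 of 6 cases between TNBS and IBC (-0.4252 to 0.6414), in 2 of 6 between TNBS and vector and in 1 of 6 between IBC and vector. In none of the 3 combinations of groups did every same-numbered pair pass 0.1, and no label ties a number to a shared source. The numbers were therefore not taken as a pairing. Between TNBS and IBC the highest pair, number 2, joined Hoxb13-low libraries only, and the lowest, number 3, a low with a high one. IBC 1 and vector 1, both Hoxb13-high, had -0.1351. Pairs of different numbers were not compared, and the part of the Hoxb13 class was not tested. With a library left out, Cdkn1a in TNBS against vector ranged from -0.0138 (without vector 3) to 0.0836, and Plk1 from -0.0373 (without vector 1) to 0.1911, so both changed sign. Pcna in IBC against vector was -0.0281 in the Hoxb13-high libraries alone. A fit of only the groups compared was not run for the averaged comparison, which already uses all 3. The remaining counts stayed within 1.5 times of those reported.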
